A study of Mus musculus with 16 samples.

Results

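The baseline transcriptome of the CA1 subfield was described from the 8 wild-type libraries, chosen as those whose genotype label reads C57BL/6 alone, out of 16 in the series. CA1 is the subfield of the hippocampus whose pyramidal neurons send its output to the subiculum and the cortex. The series was built to compare these mice with Fmr1 knockout (Fmr1-KO) mice, and no such comparison is made here. All 8 wild-type mice had served as yoked controls for active place avoidance, a task in which a mouse learns to keep out of a shock zone. Total RNA of the dissected subfield was taken with the Maxwell 16 LEV RNA Isolation Kit, and the libraries were run on the Illumina HiSeq platform. The labels name the mice by strain, with no transgene or allele, and the sources used here give no age or sex. The libraries are named WT replicates 1 to 8. Their labels give an animal number and a letter, so they were read as separate animals, with 3 pairs sharing a number, and what number and letter stand for is not stated.

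CA1 pyramidal neurons are glutamatergic cells that fire in particular places of an environment, and the synapses they receive from CA3 are the best studied site of long-term potentiation. That form of plasticity starts when calcium enters through NMDA receptors and binds calmodulin, which activates the kinase CaMKII, and more AMPA receptors are then held at the synapse. Genes such as Fos, Arc and Npas4 are transcribed within minutes of strong activity and are used as markers of recently active neurons. Dissected CA1 also holds interneurons, glia and vessels, and in bulk tissue fewer cells of a type and less RNA per cell cannot be told apart.

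Depth differed between the libraries and 2 of them stood apart. The estimated counts, which are reads divided over transcripts by a probabilistic model, summed to 2843621, 3275003, 878484, 2620993, 2747992, 515103, 2126632 and 2761371 in WT replicates 1 to 8. WT replicates 3 and 6 were the only libraries under 1000000, and the composition and spread between libraries are given with and without them. Across genes, Spearman's rho of log2(CPM + 1) over 13872 detected symbols ranged from 0.949 to 0.974 among the other 6 libraries. The median rho of WT replicate 3 with the others was 0.829 and that of WT replicate 6 was 0.859. No 2 of the 28 pairs of libraries held identical values.

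CA1 tissue expressed a broad set of genes and no gene dominated the deeper libraries. Of 46403 gene symbols in the tables, between 13405 and 18451 had a value above 0 in a library, with a median of 17742, and between 6477 and 12241 had at least 10 estimated counts, with a median of 11766. WT replicate 3 had the fewest symbols above 0 and WT replicate 6 the fewest with 10 counts. Detected symbols, with a median of at least 1 TPM (a level per transcript length, scaled to a fixed total) and 10 counts over the samples, numbered 13872. The 100 largest symbols of a library held 16.8% to 44.1% of its estimated counts, with a median of 17.99%, and 50% of the counts lay in 214 symbols in WT replicate 6 and in 683 to 889 in the others. Without WT replicates 3 and 6 the 100 largest held 16.8% to 20.3% and 50% of the counts lay in 745 to 889 symbols.

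Levels are given below as coding TPM, the deposited TPM rescaled so that the protein-coding transcripts of each library sum to 1000000. This scale was chosen after short entries were seen to take up much of the deposited TPM. On it, 7793 of 21864 symbols with a protein-coding transcript, or 35.6%, had a median of 0. A further 3272 lay between 1 and 10, 7247 between 10 and 100, 2363 between 100 and 1000, and 100 at 1000 or more. The symbols of any type at 1000 or more numbered 121 and held 16.4% of the counts in the median library, while the 2462 between 100 and 1000 held 51.7%. The 7730 between 10 and 100 held 29.6%, so the class from 100 to 1000 held the largest part of the counts.

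Protein-coding transcripts took most of the estimated counts in every library. They held 90.8%, 91.7%, 80.7%, 90.4%, 87.6%, 58.4%, 89.1% and 91.4% of the counts in WT replicates 1 to 8, so that WT replicate 6 was lowest and WT replicate 3 next. Retained-intron transcripts, which are annotated forms that keep an intron, held 2.74% to 4.58%, with a median of 3.02%, and long intergenic noncoding RNA (lincRNA) held 1.29% to 10.8%, with a median of 1.86%. Transcripts encoded in the mitochondrial genome held 1.496% to 4.10%, with a median of 2.54%. Without WT replicates 3 and 6 these ranges were 87.6% to 91.7% for protein-coding, 2.74% to 3.25% for retained-intron, 1.29% to 2.04% for lincRNA and 1.92% to 3.38% for mitochondrial transcripts. The 95% Wilson intervals of these shares were at most 0.136 percentage points to either side and cover counting error only.

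WT replicates 3 and 6 had more counts than the others on a few entries with a long homopolymer. Sequences from GENCODE M21 (GRCm38) were matched to 66128 of the 111706 transcripts, and 83 of those hold a run of at least 31 A or T bases. These 83 took 0.897%, 0.472%, 6.96%, 0.885%, 1.39%, 24.8%, 1.34% and 0.630% of the counts in WT replicates 1 to 8. Transcripts whose longest run was 25 to 30 bases took 0.969% in WT replicate 3, 0.873% in WT replicate 6 and 0.676% to 0.773% in the others. At 20 to 24 bases the shares were 0.711%, 0.764% and 0.5259% to 0.567%, so these 2 libraries were also above the rest from 20 to 30 bases, by far less. At 15 to 19 bases WT replicate 6 was highest at 2.828%, while WT replicate 3, at 2.195%, lay within the 1.994% to 2.557% of the others. The 4 entries shown here are the 3 largest of that kind and a short entry among the most variable, with the longest run in capitals and the genome position of the gene on GRCm38. Gm29013, annotated as an unprocessed pseudogene, is shown whole (chr1:105244425-105244661, plus strand). Gm28707, a lincRNA, is shown from base 1 to 90 of its transcript (gene at chr13:42049334-42050287, plus strand), and RP23-372C7.4 from base 333 to 422 (gene at chr3:53083219-53085885, plus strand). Gm23935 is an entry of 57 bases (chr16:11144125-11144181, plus strand) with no such run.
Gm29013: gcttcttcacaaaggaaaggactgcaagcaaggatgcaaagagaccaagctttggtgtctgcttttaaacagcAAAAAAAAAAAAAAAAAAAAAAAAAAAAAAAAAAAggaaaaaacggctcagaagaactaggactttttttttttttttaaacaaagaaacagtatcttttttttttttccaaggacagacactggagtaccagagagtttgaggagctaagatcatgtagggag
Gm28707: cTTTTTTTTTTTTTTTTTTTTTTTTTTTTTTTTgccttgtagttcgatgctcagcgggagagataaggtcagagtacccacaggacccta
RP23-372C7.4: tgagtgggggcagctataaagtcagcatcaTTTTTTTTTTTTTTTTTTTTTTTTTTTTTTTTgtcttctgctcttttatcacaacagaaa
Gm23935: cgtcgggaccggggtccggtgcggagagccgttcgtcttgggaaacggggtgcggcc

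Gm29013, whose run of A is 35 bases long, held 0.155%, 0.102%, 2.58%, 0.202%, 0.428%, 8.31%, 0.265% and 0.133% of the counts in WT replicates 1 to 8. Gm28707, with 32 T, ranged from 0.0981% to 8.80% with a median of 0.484%, and RP23-372C7.4, also with 32 T, from 0.0333% to 4.499% with a median of 0.0986%. All 3 were highest in WT replicate 6. Because TPM divides by length, the 237 bases of Gm29013 carried 41887 to 486397 deposited TPM, and protein-coding transcripts held only 7.29% of the deposited TPM in WT replicate 6 and 26.9% in WT replicate 3, against 33.0% to 73.0% in the others. Whether these counts come from reads that are themselves homopolymers was not tested, since the deposited tables hold no reads.

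A second group of entries, of which Rn18s-rs5 is the largest, moved together across libraries. Rn18s-rs5, an 18S ribosomal RNA related sequence, Lars2, the mitochondrial leucyl-tRNA synthetase, and the short entries Mir6236, Gm15662 and AA474408 together held 0.214%, 0.228%, 1.60%, 0.242%, 3.54%, 6.64%, 1.09% and 0.200% of the counts in WT replicates 1 to 8. WT replicates 6 and 5 were highest. With these 5 symbols and the entries with a run of at least 31 bases set aside, protein-coding transcripts held 81.6% to 92.1% of the remaining counts, with a median of 91.0%, and the 10 largest symbols 3.75% to 7.78%, against 3.73% to 31.6% over all entries. Gm22973, annotated as a small nuclear RNA, added 1.40% in WT replicate 6 and at most 0.00200% elsewhere. Levels of Lars2 in these libraries cannot be told apart from the reads of the entries that moved with it.

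**Figure D1:**
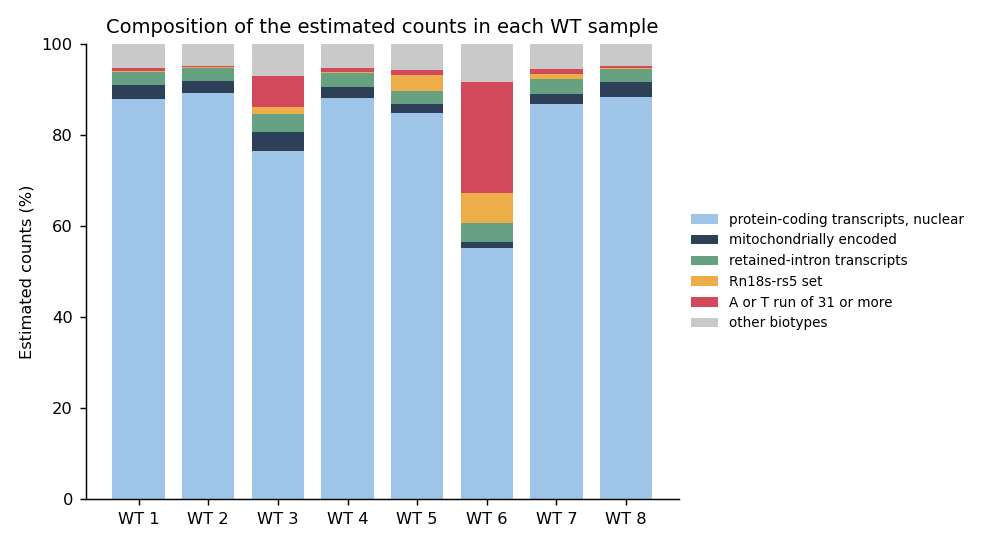
Share of each library's estimated counts (y axis, percent) by class of entry in WT replicates 1 to 8 (x axis), as stacked bars that start at 0; the class with an A or T run of 31 or more leaves out protein-coding transcripts. Nuclear protein-coding transcripts fill 55.1% of the bar in WT replicate 6, 76.5% in WT replicate 3 and 84.8% to 89.3% in the other 6.

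Among nuclear genes, the largest shares of counts included those of calcium signalling genes. Meg3, a long noncoding RNA from an imprinted locus, held 0.267% to 0.511% of the counts with a median of 0.436%. Camk2a, the alpha subunit of CaMKII whose messenger RNA is carried into dendrites, held 0.223% to 0.572% with a median of 0.395%. Ncdn, neurochondrin, a neuronal protein that regulates CaMKII, held 0.222% to 0.402% with a median of 0.373%. WT replicate 6 was lowest for each of these 3, and WT replicate 3 was highest for Camk2a. Ppp3ca, the catalytic subunit of the calcium-dependent phosphatase calcineurin, held 0.212% to 0.382% with a median of 0.356%. Of all symbols mt-Co1, subunit 1 of cytochrome c oxidase encoded in the mitochondrial genome, had the largest median share, at 0.350% to 1.09% with a median of 0.613%.

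On the scale of levels per length, the order changed. The hippocampal calcium sensor Hpca was the highest nuclear protein-coding gene, at 4524 to 7005 coding TPM with a median of 5990. Fth1, the heavy chain of ferritin that stores iron, followed at 3555 to 5714 with a median of 4644. Nrgn, neurogranin, which holds calmodulin at rest, ranged from 3036 to 4532 with a median of 3838. The calmodulin genes encode identical proteins from different loci, and Calm2 and Calm3 had median levels of 3595 and 2809. Camk2a stood at 2115 to 3814 coding TPM with a median of 2711. The ranges of Hpca and Fth1 overlapped, as did those of Fth1 and Nrgn and those of Nrgn and Calm2. The order of these neighbours is therefore not separated by the spread between animals.

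**Figure D2:**
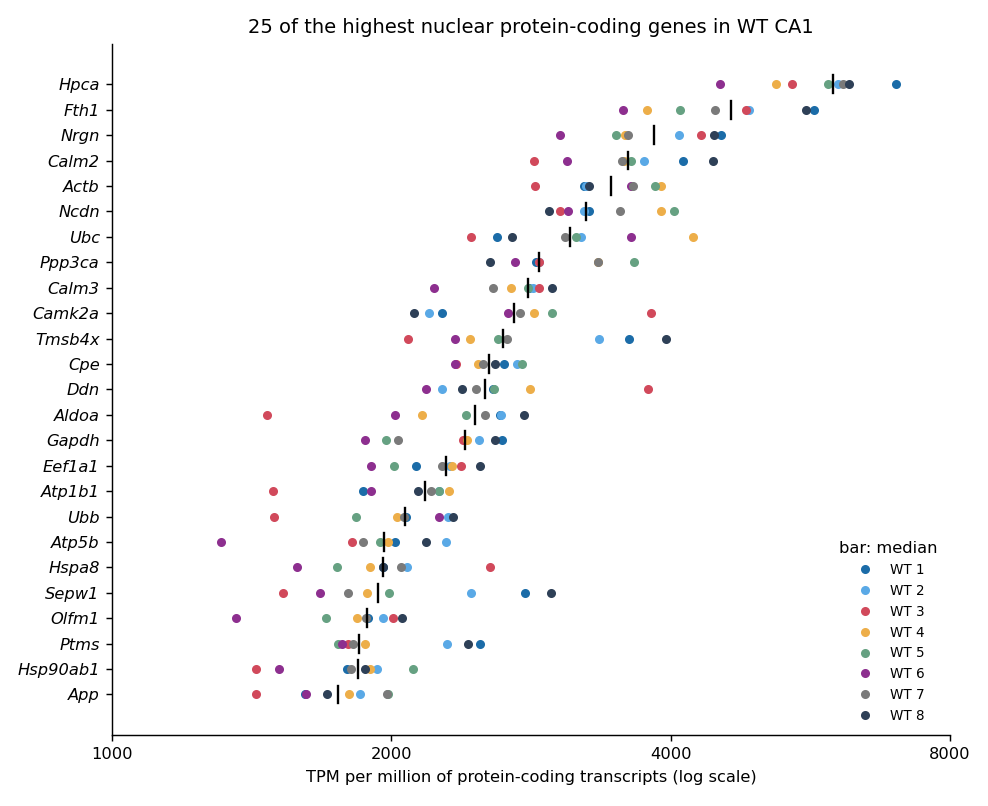
Level of 25 of the highest nuclear protein-coding genes (y axis) in coding TPM on a log axis (x axis), with 1 coloured point per WT library and a bar at the median. Hpca is highest with a median of 5990, and the range of Camk2a reaches from 2115 to 3814, with WT replicate 3 at the top.

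Counts and levels per length ranked different genes, since the latter divide by transcript length. Of the 100 symbols highest by count share, 53 were also among the 100 highest by deposited TPM. The median transcript length was 3733 bases in the former list, 1654 in the latter and 2690 over all detected symbols. The 1399 detected symbols under 1000 bases held 4.48% of the counts in the median library and 39.1% of the TPM over entries of all types. The 469 of 8000 bases or more held 9.03% of the counts and 2.03% of that TPM. The shortest class includes short noncoding entries such as Gm29013, so its share is not that of short protein-coding genes alone. Of the 20 highest symbols by deposited TPM, 9 were shorter than 300 bases. Cck, the precursor of the neuropeptide cholecystokinin, shows the effect, since it stood at place 715 by counts and at 1627 coding TPM by level, next to Slc17a7, the vesicular glutamate transporter of excitatory forebrain neurons, at 1602. Slc17a7 varied over 1455 to 1682 and Cck over 1098 to 2591.

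The labelled tissue carried the markers of CA1 pyramidal neurons at higher levels than those of neighbouring subfields. All 8 CA1 markers were detected in the median library and their summed level was 1965 to 2571 coding TPM, with a median of 2264. Wfs1, a protein of the endoplasmic reticulum used to mark dorsal CA1, had a median of 783, Mpped1 of 436, Fibcd1 of 394 and the transcription factor Pou3f1 of 274. The sum was lowest in WT replicate 3 and highest in WT replicate 5. Markers of excitatory forebrain neurons in general, such as Slc17a7, summed to 5711 to 7097.

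For CA2, the small subfield next to CA1, the 7 markers summed to a median of 186 coding TPM, of which Rgs14 alone, a regulator of G protein signalling, had 171.5. Of the 7, 5 had a median of at least 1. Amigo2 and Pcp4, also CA2 markers, had medians of 1.06 and 2.15, and that of Pcp4 was 4.785 without WT replicates 3 and 6. The 6 CA3 markers summed to a median of 79.4, with 4 of them at a median of at least 1. Bok was at 43.2, Cdh24 at 25.7, Grik4 at 5.03 and Cpne4 at 1.23, while Coch was at 0 in every library and Iyd at a median of 0. The 6 markers of dentate granule cells summed to 75.7, of which Lct held 67.5, while Prox1, the transcription factor of granule cells, was at 1.57 and C1ql2 and Tdo2 at a median of 0. Rgs14 and Lct made up most of the CA2 and dentate sums, and Bok and Cdh24 together most of the CA3 sum.

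Glial and vascular markers were present in every library. The 12 astrocyte markers summed to 1463, 1356, 3568, 1733, 1764, 1229, 1481 and 1540 coding TPM in WT replicates 1 to 8, and WT replicate 3 alone lay outside the rest. Slc1a2, the main glutamate transporter of astrocytes, was at 1060 in WT replicate 3 and had a median of 407. The 12 microglial markers summed to 851 in WT replicate 3 and to 392 to 545 in the others. The 11 oligodendrocyte markers, led by the myelin gene Mbp at a median of 260, summed to 364 to 861, lowest in WT replicate 7. Endothelial markers summed to 115 to 447, highest in WT replicate 3, and to 115 to 234 in the 6 deeper libraries. The synaptic vesicle protein Syp was at its lowest, 757, in WT replicate 3 and had a median of 1390, and the part of glial content or of depth in this library's values was not tested.

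Interneuron markers summed to 391 to 1189 coding TPM, with a median of 618 over 11 genes that were all above 1 at the median. Gad1, which makes the transmitter GABA, ranged from 80.4 to 173. Sst, the peptide somatostatin of dendrite-targeting interneurons, ranged from 0 in WT replicate 4 to 728 in WT replicate 8 with a median of 197. Its estimated counts were 14, 113, 1, 0, 198, 10, 49 and 303 in WT replicates 1 to 8, so its level rests on few reads in several libraries. Npy ranged from 12.9 to 235. The 7 markers of choroid plexus and ependyma summed to a median of 37.7 coding TPM, of which Kl alone had 35.6. Ttr, Folr1, Clic6 and Kcnj13 of that list were at 0 in all 8 libraries. Markers of the subiculum, of striatal and thalamic neurons and of immature neurons had median sums of 25.8, 83.9, 39.4 and 18.8 coding TPM. Haemoglobin and Alas2 transcripts of red blood cells summed to 11.9 to 776 with a median of 231, lowest in WT replicate 3 and highest in WT replicate 4.

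**Figure D3:**
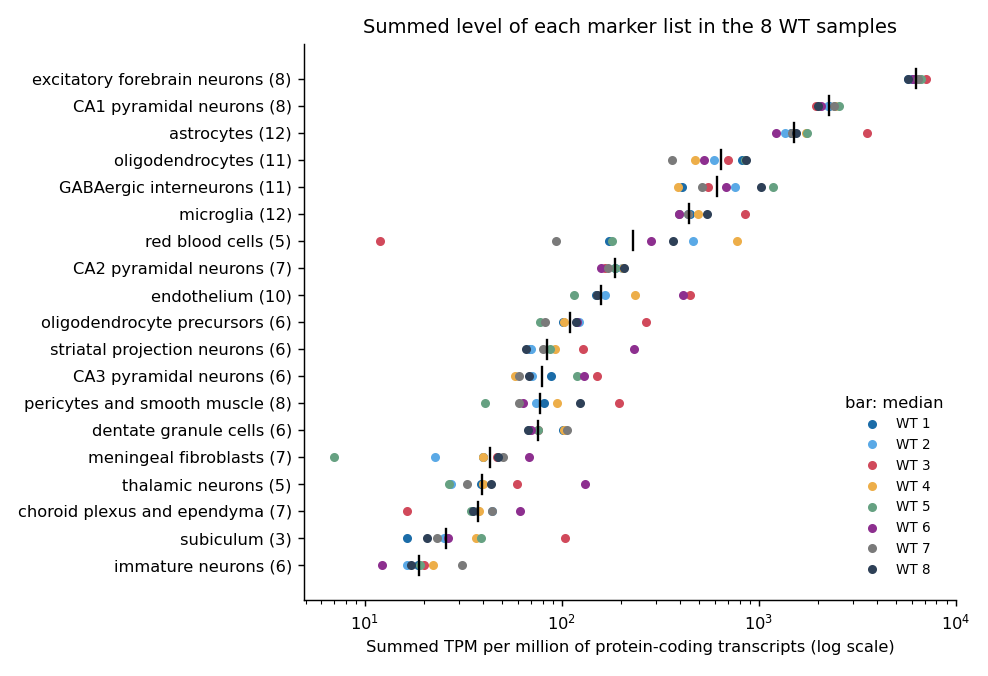
Summed level of each of 19 marker lists (y axis) in coding TPM on a log axis (x axis), with 1 coloured point per WT library, a bar at the median and the number of genes in parentheses. Excitatory and CA1 lists lie in narrow bands of 5711 to 7097 and 1965 to 2571, while the list for red blood cells runs from 11.9 to 776.

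The postsynaptic machinery was strongly represented. The 15 genes of calcium and calmodulin signalling summed to 22386 to 27480 coding TPM, with a median of 25758 and 2.29% of the counts, and the 6 deeper libraries lay between 25156 and 27480. The 16 AMPA receptor subunits and their auxiliary proteins summed to 4846 to 5858, with a median of 5192. Cnih2, an auxiliary protein that slows the channel's closing, had the highest median of that list, 1650, followed by the subunit Gria1 at 990, the auxiliary protein Cacng8 at 863 and the subunit Gria2, which keeps the channel closed to calcium, at 632. The 7 NMDA receptor subunits summed to a median of 1412. The obligatory subunit Grin1 stood at 935, Grin2a at 263 and Grin2b at 223, and the ranges of these last 2 overlapped at 162 to 377 and 144 to 500.

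Postsynaptic scaffold genes summed to 4399 to 6924 coding TPM over 15 members, led by Dlg4, which encodes PSD-95, at a median of 1108 and Shank1 at 908. Both were highest in WT replicate 3, at 1625 and 1692. The 24 genes of vesicle release summed to 9445 to 11487, with medians of 1390 for Syp, 1245 for Snap25 and 1151 for Vamp2, the last 2 being parts of the SNARE complex that fuses vesicles. Snap25 varied over 1181 to 1436.

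Inhibitory receptors were led by the subunit that marks extrasynaptic GABA-A receptors of the hippocampus. Gabra5 ranged from 141 to 338 coding TPM with a median of 267, lowest in WT replicate 3. Of 19 GABA-A subunit genes, 13 had a median of at least 1 and Gabra6, a cerebellar subunit, was at 0 in every library. Among 41 receptors for monoamines and acetylcholine in the tables, 28 had a median of at least 1, led by the muscarinic receptor Chrm1 at 236, the adrenergic receptor Adra1d at 156 and Chrm3 at 145, and the dopamine receptor Drd3 was at 0 throughout. Potassium channel genes of the Kcn and Hcn families summed to 4697 to 6360 over 96 symbols, and 70 of them had a median of at least 1. Of all symbols with a protein-coding transcript, 14.97% had a median of 1 to 10 coding TPM and 33.15% of 10 to 100. A further 10.81% had 100 to 1000 and 0.4574% had 1000 or more. Whether these 3 lists were expressed more often than such symbols in general was not tested.

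Energy and housekeeping genes filled much of the level scale. The 37 mitochondrially encoded symbols summed to 86356 to 173800 coding TPM with a median of 106186, highest in WT replicate 3. Glycolytic enzymes summed to 10543 to 13563 over 17 genes, with Aldoa at a median of 2464 and Gapdh at 2401. The 12 ion-pumping ATPases summed to 7036 to 9831, with Atp1b1, a beta subunit of the sodium-potassium pump, at a median of 2172. Long noncoding RNAs that were listed by name summed to 7418 to 10338, with medians of 2864 for Meg3, 1304 for Rian, 1227 for Snhg14, 1072 for Snhg11 and 836 for Malat1, and Neat1, a scaffold of nuclear paraspeckles, was at 13.8.

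Within genes, 1 annotated transcript usually took most of the counts. Of 3936 symbols with a median of at least 50 CPM (estimated counts after TMM scaling, a trimmed mean method, to a fixed library total), 3128 had more than 1 transcript in the tables, and the largest transcript took a median of 79.2% of the gene's counts. For 76 of 3872 symbols with a protein-coding transcript, or 1.96%, the largest transcript had another annotated type. That type was retained intron for 33, nonsense-mediated decay for 31 and processed transcript for 12. Atp2a2, the calcium pump of the endoplasmic reticulum, was led by Atp2a2-003, annotated for nonsense-mediated decay, with 59.4% of its counts. Such assignments depend on how the model divided reads between forms that share exons. Zbtb20, a transcription factor needed for CA1 identity, had 573, 625, 921, 818, 1248, 1184, 808 and 594 TMM CPM in WT replicates 1 to 8 but 194, 186, 809, 257, 716, 1102, 262 and 150 coding TPM. Its spread between libraries was thus wider in level per length than in counts, with WT replicates 3, 5 and 6 highest on both scales.

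Among the more highly expressed symbols, the typical spread between libraries was wider than counting error alone would give. Over the 3936 symbols with at least 50 CPM the median coefficient of variation (CV, the SD over the mean) was 18.6% across 8 libraries, where counting error alone would give 8.34%. Across the 6 deeper libraries it was 13.2% against 5.74%. The CV fell with level, from 14.98% at 50 to 100 CPM to 9.57% from 500 CPM in the deeper libraries. In those 6, 33 symbols had a CV over 50% and 1098 under 10%.

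Myh9, the heavy chain of non-muscle myosin, had the smallest CV over all 8 libraries, 3.61%, with values of 214 to 239 TMM CPM and a median of 233.5. Rapgefl1, named for its likeness to Rap guanine nucleotide exchange factors, ranged from 349 to 395 with a CV of 3.78%. Gna11, the alpha subunit of a G protein that signals through phospholipase C, ranged from 135 to 156 with a CV of 4.36%. The ranges of all 3 included the 2 shallow libraries. All 3 CVs lay below the median CV that counting alone would give at such levels, 5.13% at 200 to 500 CPM and 7.46% at 100 to 200 CPM. They were picked as among the smallest of 3936 symbols, so they do not show that these genes are steadier than others.

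At the other end, the most variable entries among the 6 deeper libraries were led by ribosomal and short entries. The first 9 were Gm12896, the Rn18s-rs5 set and 3 identical entries. Rn18s-rs5 had a CV of 152%, and Gm23935, Gm24270 and Gm24245, which carry 1 identical sequence of 57 bases and identical values, had a CV of 140%. Gm23935 held 0.00531%, 0.00613%, 0.0237%, 0.00612%, 0.0657%, 0.00809%, 0.0173% and 0.00505% of the counts in WT replicates 1 to 8. WT replicate 5 was highest, as it was for 20 of the 30 most variable symbols in those 6 libraries. The 30 include identical entries and the Rn18s-rs5 set, so they are not separate observations. The share of all symbols that were highest in WT replicate 5 is not given here. Another 5 of the 30 were highest in WT replicate 4, as were 18.2% of all 3936 symbols among those 6 libraries. All 5 are on the list of immediate early genes.

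**Figure D4:**
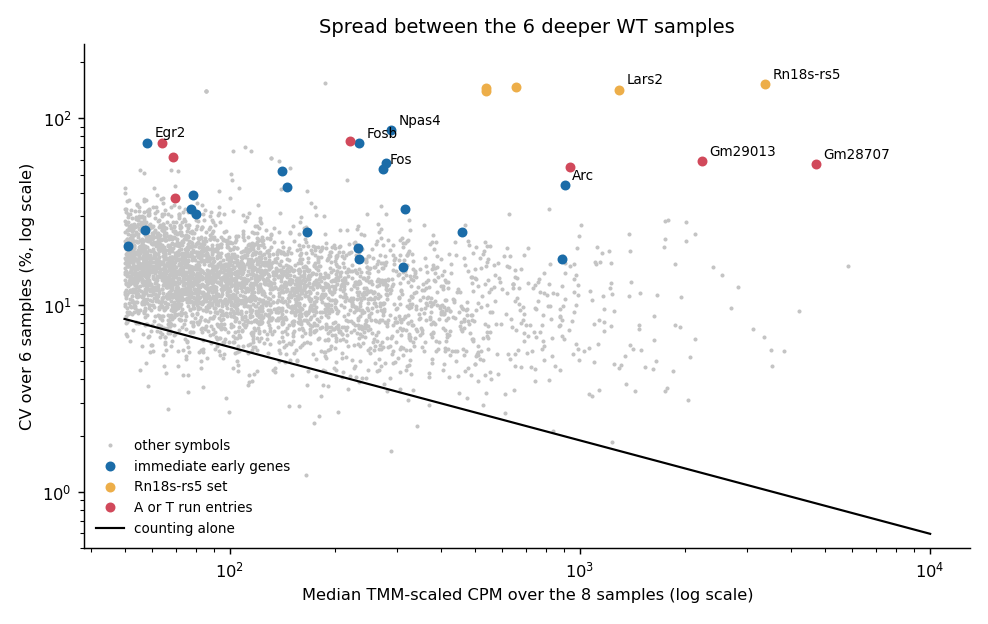
CV over the 6 deeper libraries (y axis, percent, log axis) against median level in TMM CPM (x axis, log axis) for 3936 symbols, with a line for the CV that counting alone would give. The median CV is 13.2%, and the named points at the top include Rn18s-rs5 at 152% and Npas4 at 86.2%.

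Immediate early genes were highest in 1 animal. Their summed level was 6776, 5416, 4825, 13226, 5777, 6607, 8625 and 5358 coding TPM in WT replicates 1 to 8, so WT replicate 4 stood above the rest and WT replicate 7 was next. Npas4, a transcription factor induced by calcium entry, had 354, 224, 41.1, 1027, 221, 444, 432 and 76.8 TMM CPM. Fos had 278, 228, 261, 693, 211, 290, 343 and 269. Both peaked in WT replicate 4, and WT replicate 8 had the lowest Npas4 of the 6 deeper libraries. Arc, whose protein acts at dendritic synapses, ranged from 545 to 1881 with a median of 905. Fosb ranged from 157 to 797.5 with a median of 234, and Egr2 from 37.9 to 188 with a median of 58.0.

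Of the 22 immediate early genes, 18 had their highest value in WT replicate 4, against 12.9% of all 3936 symbols. The other 4 were Jund, Ier5, Klf4 and Bdnf, which were highest in WT replicates 3, 2, 3 and 6. Among the 6 deeper libraries 20 of 22 were highest in WT replicate 4, against 18.2% of all symbols. The CV over those 6 was 86.2% for Npas4 and 53.5% for Fos, against 17.7% for Egr1, at 446 to 1342 TMM CPM over all 8, and 15.9% for Homer1, a scaffold gene with a short activity-induced form, at 170 to 386. WT replicate 4 also had the highest sum of red blood cell markers, 776 coding TPM, whose part in this result was not tested.

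The promoters of Fos and Npas4 are shown because these genes had among the widest spread of the list. Both are 250 bases before to 50 bases after the start, from RefSeq on GRCm38.p6, with Fos at chr12:85473640-85473939 on the plus strand and Npas4 at chr19:4989922-4990221 on the minus strand. Capitals mark TGACG, the core of a cyclic AMP response element, on either strand, and TATAAA, a form of the TATA box motif.
Fos: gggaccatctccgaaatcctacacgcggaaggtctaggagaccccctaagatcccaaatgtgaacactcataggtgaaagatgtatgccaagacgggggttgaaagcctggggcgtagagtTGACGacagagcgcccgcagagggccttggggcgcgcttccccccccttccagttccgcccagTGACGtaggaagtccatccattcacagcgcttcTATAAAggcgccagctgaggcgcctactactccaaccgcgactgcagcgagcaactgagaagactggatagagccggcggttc
Npas4: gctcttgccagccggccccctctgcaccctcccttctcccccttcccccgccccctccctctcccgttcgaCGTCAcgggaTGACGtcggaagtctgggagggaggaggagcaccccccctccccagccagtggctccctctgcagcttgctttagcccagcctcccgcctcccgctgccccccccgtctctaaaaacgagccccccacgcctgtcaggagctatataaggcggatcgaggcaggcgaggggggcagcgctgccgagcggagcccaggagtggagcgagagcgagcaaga

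Fos holds TGACG at bases 122 and 185 and TATAAA at base 218. Npas4 holds TGACG at base 82 and on the other strand at base 72, and no TATAAA. Only these exact letters were searched, so the similar tatataag in the printed Npas4 promoter is not marked. Of other listed genes with a wide spread, Fosb and Egr4 hold TGACG but no TATAAA, and Egr2 and Jun hold neither. Of the 18 immediate early genes with a promoter in the RefSeq table, 12 hold TGACG on either strand, or 66.7%, against 21.0% of all 27025 promoters and 37.9% of those of protein-coding genes with a median of at least 100 coding TPM. TATAAA was in 3 of the 18, or 16.7%, against 14.2% of all promoters and 6.65% of those of protein-coding genes from 100 coding TPM. The whole palindrome TGACGTCA was in 2, Btg2 and Dusp1, or 11.1%, against 1.88% of all and 4.57% from 100 coding TPM. Arc, Egr1, Egr3 and Ier2 had no entry. A match of letters is a description and shows no binding.

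Promoter letters also differed by level over all protein-coding genes, of which 15954 of 21864 had a RefSeq promoter. TATAAA was in 24.4% of promoters of genes at a median of 0, 8.51% of those at 1 to 10 coding TPM, 5.85% at 10 to 100 and 6.65% from 100. The GC box GGGCGG, searched on both strands, was in 17.7%, 56.4%, 67.0% and 68.5% of the same classes. The median ratio of observed to expected CpG was 0.192 at a median of 0 and 0.815 from 100 coding TPM. By these shares, which carry no test, promoters of genes at a median of 0 held TATAAA more often, and GGGCGG less often, than those of expressed genes.

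The deeper libraries also differed in the level of short housekeeping transcripts. Genes of cytosolic ribosomal proteins summed to 36443, 35169, 25719, 25720, 23250, 29062, 26673 and 41784 coding TPM in WT replicates 1 to 8. Nuclear genes of the respiratory chain and ATP synthase summed to 30618, 30328, 21108, 21733, 21780, 20787, 22436 and 32665. WT replicates 1, 2 and 8 were the 3 highest for both lists and did not overlap the other 5. Cox6b1, a small subunit of cytochrome c oxidase, had 78.5, 76.6, 35.7, 43.7, 37.5, 56.9, 30.9 and 90.4 TMM CPM and had the same 3 libraries on top. Tmsb4x, the actin-binding thymosin beta 4, had 3604, 3347, 2086, 2431, 2607, 2342, 2663 and 3958 coding TPM, again with those 3 highest. Rps14, a protein of the small ribosomal subunit, was highest in WT replicates 8 and 6.

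Transcript length moved with this pattern. In the 984 symbols with the shortest transcripts, up to 2720 bases, the median log2 deviation from each gene's median was 0.16, 0.11 and 0.18 in WT replicates 1, 2 and 8 and -0.06, -0.09 and -0.05 in WT replicates 4, 5 and 7. In the 984 with the longest transcripts, from 5914 bases, it was -0.11, -0.01 and -0.13 in the first 3 and 0.14, 0.18 and 0.10 in the second 3. By GC content, known for 99.7% of the 3936 symbols, the 981 highest in GC deviated by 0.12 in WT replicate 1, 0.04 in WT replicates 2 and 8 and -0.01 in WT replicates 4, 5 and 7. The part of transcript length in the ribosomal and respiratory sums was not tested.

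**Figure D5:**
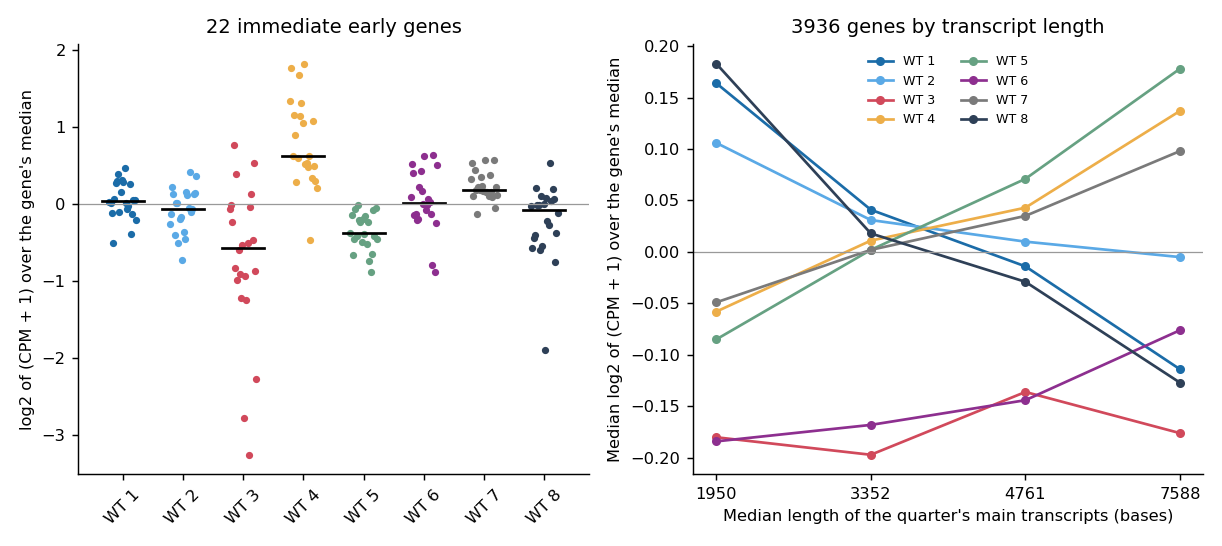
Left, log2 level of the 22 immediate early genes over each gene's median (y axis) in WT replicates 1 to 8 (x axis), 1 point per gene; right, the median log2 deviation of 3936 symbols (y axis) in 4 classes of transcript length (x axis, bases) for each library. WT replicate 4 holds the highest value of 18 of the 22 genes, and the class of shortest transcripts lies at 0.11 to 0.18 in WT replicates 1, 2 and 8.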

How the data were processed

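Total RNA from dissected CA1 was sequenced for 8 WT libraries. Per the submitters' processing notes, the tools were kallisto, cutadapt, FastQC and DESeq2. The sources used here do not give tool versions, transcript index or genome build. The authors deposited 1 table per library with an estimated count and a TPM value for each of 111706 transcripts, per the file headers. The deposited estimated counts divide reads between transcripts that share sequence, so values of paralogs, pseudogenes and overlapping genes are uncertain, and 550 sets of transcripts have identical sequences. The deposited TPM values are scaled by effective length within a library and hold no depth.

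Both were summed by gene symbol. Shares are of all estimated counts. TMM CPM was computed from the summed counts. Its scaling factors were checked against edgeR, and the CV was tested on simulated counts of known spread. The other summaries were not tested in these ways. Levels in coding TPM and the exclusion of entries with A or T runs were chosen after seeing the data. Positions and transcript sequences came from GENCODE M21 (GRCm38) and promoters from RefSeq (GRCm38.p6), the first per symbol. Values are the lowest, median and highest of 8 libraries. Some genes are not reported here. With 1 group there is no test between groups, and Dixon's ratio was used only to find libraries that stand apart. The spread measures these libraries and may be technical. Libraries hold 515103 to 3275003 counts, and a count of 0 allows up to 3 counts, or 0.916 to 5.82 CPM.

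The members and lists were chosen with earlier results of these data known. Genes were named from the 20 highest by count share, the 20 highest by TPM, the 5 highest of each library, the 3 highest of each list, and the 12 largest and 12 smallest CVs from 50 CPM. List members, genes of the 6 deeper libraries and the Y-linked genes named beyond that were chosen after their values were seen. Python 3.11.15, pandas 2.3.3, NumPy 2.4.6, SciPy 1.17.1 and Matplotlib 3.10.9 were used.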

Additional observations from a re-analysis of the deposited data

Results flagged for a closer look

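For 85 of the values reported, the gap between the library at one end and its nearest neighbour was set against the whole range of the 8 libraries. In 27 of them the ratio passed Dixon's 95% critical value for 8 samples, with 14 in WT replicate 6, 6 in WT replicate 3, 6 in WT replicate 4 and 1 in WT replicate 5. Chance passes it in about 1 of 20 groups taken without regard to their values. That rate does not apply to this count, since many of the 85 values were named for being high or variable, and they are not independent.

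WT replicate 6, the shallowest library, was apart in composition. Its 10 largest symbols held 31.59% of the counts and its 100 largest 44.07%, 214 symbols held 50%, protein-coding transcripts held 58.38%, and transcripts with a long A or T run held 24.78%. Single entries that were high there were Gm28707 at 8.802%, Gm29013 at 8.315%, RP23-372C7.4 at 4.499%, Lars2 at 1.454% and Gm22973 at 1.400%. Ncdn at 0.2221% and Ppp3ca at 0.2116% were low there as shares of the same total. The summed olfactory receptors were at 654.5 coding TPM, against a median of 50.5, and Xist, the X-inactivation RNA, at 102.2, on few counts.

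WT replicate 3, also shallow, was apart in cell type markers and mitochondrial genes. Astrocyte markers summed to 3568 coding TPM, microglial markers to 851.3 and mitochondrially encoded genes to 173800. Slc1a2 was at 1060 and Syp was low at 757.2, and Gna11 was low at 135.1 TMM CPM.

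WT replicate 4, a deep library, was apart in immediate early genes. Their sum was 13226 coding TPM, Arc was at 1881 TMM CPM, Npas4 at 1027, Fosb at 797.5, Fos at 692.9 and Egr2 at 188.3. In WT replicate 5, Gm23935 held 0.06573% of the counts.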

How the results depend on the processing

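Each summary value was recomputed under the alternatives, which gave 127 values. Of these, 109 moved by less than 1 SD or, for counts of genes, by less than 1.5 times. For shares the SD was that between libraries. For the median CV it was that of the leave-one-out values, and for the correlation that over pairs of libraries. The SD includes WT replicates 3 and 6 and is wide for some shares. The share of the 10 largest symbols, with a median of 4.323%, had an SD of 9.563, so its mean of 8.556% counted as unmoved. Genes detected numbered 10354 to 16434 over thresholds. As shares of deposited TPM, protein-coding transcripts held 58.92%, retained-intron transcripts 4.611% and mitochondrial transcripts 6.171%. The median CV of 18.6% was 13.46% without WT replicates 3 and 6, 21.40% as a mean, 23.23% with library totals in place of TMM, 23.06% from 20 CPM, 15.02% from 200 CPM, 51.62% with deposited TPM and 15.32% as a robust CV. The median correlation of 0.949 was 0.8885 with log2(TPM + 1). Leaving out each library in turn gave a median CV of 15.32% to 19.61%, lowest without WT replicate 3, and a median correlation of 0.861 to 0.9515. Coding TPM is the deposited TPM times 1 constant per library, so the choice shifts all levels of a library alike. That constant differs between libraries, since protein-coding transcripts held 7.29% of the deposited TPM in WT replicate 6 and 73.0% in WT replicate 8. Comparisons of levels between libraries therefore depend on this choice. With TPM as deposited, the medians of 49 of 66 list sums and 160 of 241 named genes moved by at least 1 SD between libraries. The 2 scales differ in their total, so these counts include that change of scale. They do not show that the order of genes or their spread changed. Without WT replicates 3 and 6 none of 66 list sums and 13 of 234 named genes above 0 changed by over 1.5 times, among them Rn18s-rs5 from 6240 to 1836 coding TPM, Mir6236 from 98414 to 38760, Gm15662 from 94259 to 35898 and Lars2 from 1050 to 399.5. No paired analysis was possible because the results come from 1 group and from no test between groups. WT replicates 6 and 3, with 515103 and 878484 counts, limit the values given over all 8 libraries, and low genes in them rest on few reads.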

Other observations

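Families of sensory receptors and defensins were mostly at 0 in CA1, beside 23.4% of all 21864 symbols with a protein-coding transcript that were at 0 in every library. Of 1105 olfactory receptor genes, 1000 were at 0 in every library, as were 295 of 326 vomeronasal receptors, 35 of 38 taste receptors and 49 of 53 defensins. Of 47 keratins 19 were at 0 in every library, and of 94 cytochrome P450 genes 56. The P450 genes still summed to 416 to 590.5 coding TPM, of which Cyp46a1, the neuronal cholesterol hydroxylase, had a median of 297. Families of general use were broadly present, with 50 of 59 Rab GTPases, which direct vesicle traffic, 64 of 68 protocadherins and 323 of 373 Zfp zinc finger genes at a median of at least 1 coding TPM. Of all 21864 symbols with a protein-coding transcript, 14.97% had a median of 1 to 10 and 33.15% of 10 to 100. A further 10.81% had 100 to 1000 and 0.4574% had 1000 or more. The difference between these families and all such symbols was not tested.

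Transcripts of Y-linked genes were present in all 8 libraries. Ddx3y ranged from 20.3 to 57.5 coding TPM and Eif2s3y from 46.2 to 123. The mineralocorticoid receptor Nr3c2 was at 166 to 259 and the glucocorticoid receptor Nr3c1 at 40.2 to 112 coding TPM, with medians of 199.8 and 74.3. The amyloid precursor gene App had 1427 to 1985 and Apoe, a lipid carrier of glia, 1285 to 2369, highest in WT replicate 3.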
